A study of Homo sapiens with 8 samples.

Results

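Cadherins hold epithelial cells together at adherens junctions, and this account follows 10 genes of that system: the cadherins CDH1, CDH2, CDH3, CDH11 and CDH17, the catenins CTNNA1, CTNNB1 and CTNND1, and the epithelial to mesenchymal transition (EMT) markers VIM and EPCAM. They were chosen by symbol, and each was read on its brightest probe set, by the mean of the 8 arrays, among those annotated with a single gene symbol. Of the 10 genes, 9 had such a probe set, out of 19775 genes measured in this way. CTNND1, the delta-catenin gene, had none. All 4 of its probe sets are also annotated with the read-through gene TMX2-CTNND1, so it has no value here.

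The cells were HuCCT1, an established human cholangiocarcinoma (bile duct cancer) line, profiled on Affymetrix expression arrays. In 4 samples the cells carried an shRNA against YAP1, labelled YAP shRNA 1, and in 4 a control shRNA, described as scrambled. Both groups received 100 ng/ml doxycycline, begun 3 days before seeding, to switch the shRNA on. The labels name a single hairpin against YAP1 in a single cell line, and do not say whether replicates were grown apart, so the p-values reflect the scatter of these arrays, part or all of which may be technical.

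YAP is the coactivator at the end of the Hippo pathway, which reads cell contact among other cues, and adherens junctions are among its inputs. Classical cadherins bind each other across the gap between cells. Inside the cell their tails bind beta-catenin and delta-catenin, and alpha-catenin links beta-catenin to actin. In EMT, epithelial cells lose E-cadherin (CDH1) and gain N-cadherin (CDH2) and vimentin (VIM). The exchange of E-cadherin for N-cadherin is known as the cadherin switch. It can be partial, and carcinoma cells often express both cadherins.

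The targeted gene was lower with its shRNA. YAP1 read 10.40, 10.55, 10.51 and 10.54 on the YAP shRNA arrays, against 12.59, 12.61, 12.77 and 12.60 on the control shRNA arrays, all on the log2 scale of the deposited values. That was a 4.41-fold difference, and the groups lay far apart. The series title speaks of overexpression, which these values go against. The biliary identity of the line was checked on 7 measured markers of 9 listed. The ductal keratin genes KRT7, KRT8, KRT18 and KRT19 and the biliary transcription factor gene SOX9 were bright on all arrays, while CFTR and SPP1 lay below the median gene level. The first 2 principal components set the groups apart and then control shRNA replicate 4 from the rest (-22.95 on the second, against -6.39 to 12.29). For this reason some counts and values are given without that array too.

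Of the 9 measured genes, 2 rose with the YAP shRNA and 2 fell, by limma at an adjusted p below 0.05 (Benjamini-Hochberg over the 19775 genes). CDH1 and CDH3 were the genes that rose, and CDH2 and VIM those that fell. EPCAM and CTNNA1 stayed within 0.12 log2 by their 95% intervals. Over all genes, 16.7% were called, 9.49% higher and 7.17% lower. The median log2 fold change of the 9 genes was 0.01, the same as over all genes. Genes above the median level, where 7 of the 9 members lie, were called more often, 26.6% of them, with 15.2% higher and 11.4% lower. All 4 called genes moved by less than 1.5-fold, as did 85.0% of called genes overall. Leaving out control shRNA replicate 4 also gave 2 rises and 2 falls.

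Promoter windows are shown for CDH2 and VIM, the genes that fell, since both are classical mesenchymal markers and RefSeq (GRCh38.p14) start sites were at hand for them. RefSeq windows matched 4 of the 10 genes (CDH2, VIM, CTNNA1 and CTNNB1). Each window below is the 250 bases before an annotated start, 5′ to 3′ on the gene's strand. Capitals mark any match, on either strand, to GGAATG (the core of the site bound by TEAD factors, the DNA-binding partners of YAP), CAGGTG (the E-box bound by ZEB and SNAI repressors), TGANTCA (the AP-1 site) or GGGCGG (the GC box).
VIM, chr10:17227991-17228240, plus strand: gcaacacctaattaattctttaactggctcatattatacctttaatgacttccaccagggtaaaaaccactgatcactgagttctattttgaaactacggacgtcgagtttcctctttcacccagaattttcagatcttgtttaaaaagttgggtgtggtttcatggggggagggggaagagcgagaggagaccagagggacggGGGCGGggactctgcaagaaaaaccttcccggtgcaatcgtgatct
CDH2, outer start, chr18:28177131-28177380, minus strand: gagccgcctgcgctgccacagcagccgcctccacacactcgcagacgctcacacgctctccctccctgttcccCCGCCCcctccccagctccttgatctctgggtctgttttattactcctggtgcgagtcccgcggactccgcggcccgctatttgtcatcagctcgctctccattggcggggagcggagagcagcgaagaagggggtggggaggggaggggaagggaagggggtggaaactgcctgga
CDH2, inner start, chr18:28036642-28036891, minus strand: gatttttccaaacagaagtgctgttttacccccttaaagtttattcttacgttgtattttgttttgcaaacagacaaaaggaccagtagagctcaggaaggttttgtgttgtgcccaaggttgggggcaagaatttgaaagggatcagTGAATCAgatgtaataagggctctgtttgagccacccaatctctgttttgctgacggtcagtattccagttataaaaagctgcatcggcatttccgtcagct
The VIM window and the outer CDH2 window each held 1 GC box, and the inner CDH2 window held 1 AP-1 match. None of the 3 windows held GGAATG or CAGGTG. Over 35116 RefSeq windows of the same length, 11.89% held GGAATG, 17.49% CAGGTG, 6.573% the AP-1 letters and 42.64% the GC box. The GC box is common in promoters at large and is not particular to the genes that fell. The CTNNB1 window held 3, and of the 4 CTNNA1 windows 1 held 9, another 4 and the remaining ones 0, and neither gene was called. A match, or its absence, describes these bases only.

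CDH1, which encodes E-cadherin, the main cadherin of epithelial junctions, was higher with the YAP shRNA. It read 13.24, 13.19, 13.21 and 13.21 on the YAP shRNA arrays, against 12.85, 12.91, 12.88 and 12.89 on the control shRNA arrays. The arrays of each group lay within 0.1 of each other and the groups did not overlap. The means were 13.22 ± 0.022 and 12.88 ± 0.026 (SD, n = 4 and 4), a log2 fold change of 0.33, or 1.26-fold (standard error 0.035; limma adjusted p = 0.000376). Its other probe set was dim, at means of 7.53 ± 0.25 with the YAP shRNA and 7.07 ± 0.13 with the control shRNA. There YAP shRNA replicate 1, at 7.17, lay within the control shRNA range of 6.91 to 7.21. That probe set gave a log2 fold change of 0.46 and was not called over all 54675 probe sets (limma adjusted p = 0.0502), of which 10.2% were.

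CDH3 encodes P-cadherin, a classical cadherin of basal and stratified epithelia. It stood at 10.20, 10.38, 10.30 and 10.35 on the YAP shRNA arrays, against 10.00, 9.84, 9.94 and 9.85 on the control shRNA arrays. All YAP shRNA arrays were higher. The means of 10.31 ± 0.076 and 9.91 ± 0.077 gave the widest difference among the cadherin members, 0.40 log2 or 1.32-fold (SD, n = 4 and 4; limma adjusted p = 0.00158). CDH3 has 1 single-symbol probe set, so no second reading was at hand.

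CDH3 and CDH1 are neighbours on chromosome 16. Of the 3 measured protein-coding genes on either side, PRMT7 and ZFP90 also rose, by 0.37 and 0.20 (limma adjusted p = 0.00344 and 0.0171). SMPD3 stood at a log2 fold change of -0.16, TANGO6 at 0.00, HAS3 at 0.15 and CHTF8 at 0.14, none of which was called. On chromosome 16 as a whole, 14.5% of 825 genes rose and 3.52% fell, with a median log2 fold change of 0.04. The part of this in the values of CDH1 and CDH3 was not tested.

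CDH2, which encodes N-cadherin, the cadherin of neural and mesenchymal cells, was lower with the YAP shRNA. Its values were 12.45, 12.49, 12.49 and 12.47 on the YAP shRNA arrays, against 12.77, 12.77, 12.77 and 12.89 on the control shRNA arrays. The groups did not overlap, and control shRNA replicate 4 was the highest of the 8. The means were 12.47 ± 0.020 and 12.80 ± 0.063 (SD, n = 4 and 4). CDH2 fell by 0.32 log2 (standard error 0.042; limma adjusted p = 0.00119), and by 0.29 without control shRNA replicate 4 (limma adjusted p = 0.000794).

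The second CDH2 probe set moved the same way. It read 9.84, 9.94, 9.93 and 9.96 on the YAP shRNA arrays, against 10.44, 10.34, 10.47 and 10.27 on the control shRNA arrays. Here control shRNA replicate 4 was the lowest of its group, and the groups again did not overlap. The log2 fold change was -0.46 (limma adjusted p = 0.00182 over all probe sets). CDH2 lies on chromosome 18, where 2.97% of 303 genes rose and 16.8% fell, with a median of -0.04. Its nearest measured neighbours KCTD1, AQP4 and CHST9 on one side stood at -0.03, -0.06 and -0.04, and DSC2 and DSC1 on the other at 0.16 and 0.00, none of them called. The desmocollin gene DSC3, the measured protein-coding gene that follows CDH2 in order along the chromosome, fell by 1.30 (limma adjusted p = 0.000575). This order takes no account of the distance between genes. The part of the chromosome in the fall of CDH2 was not tested.

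**Figure D1:**
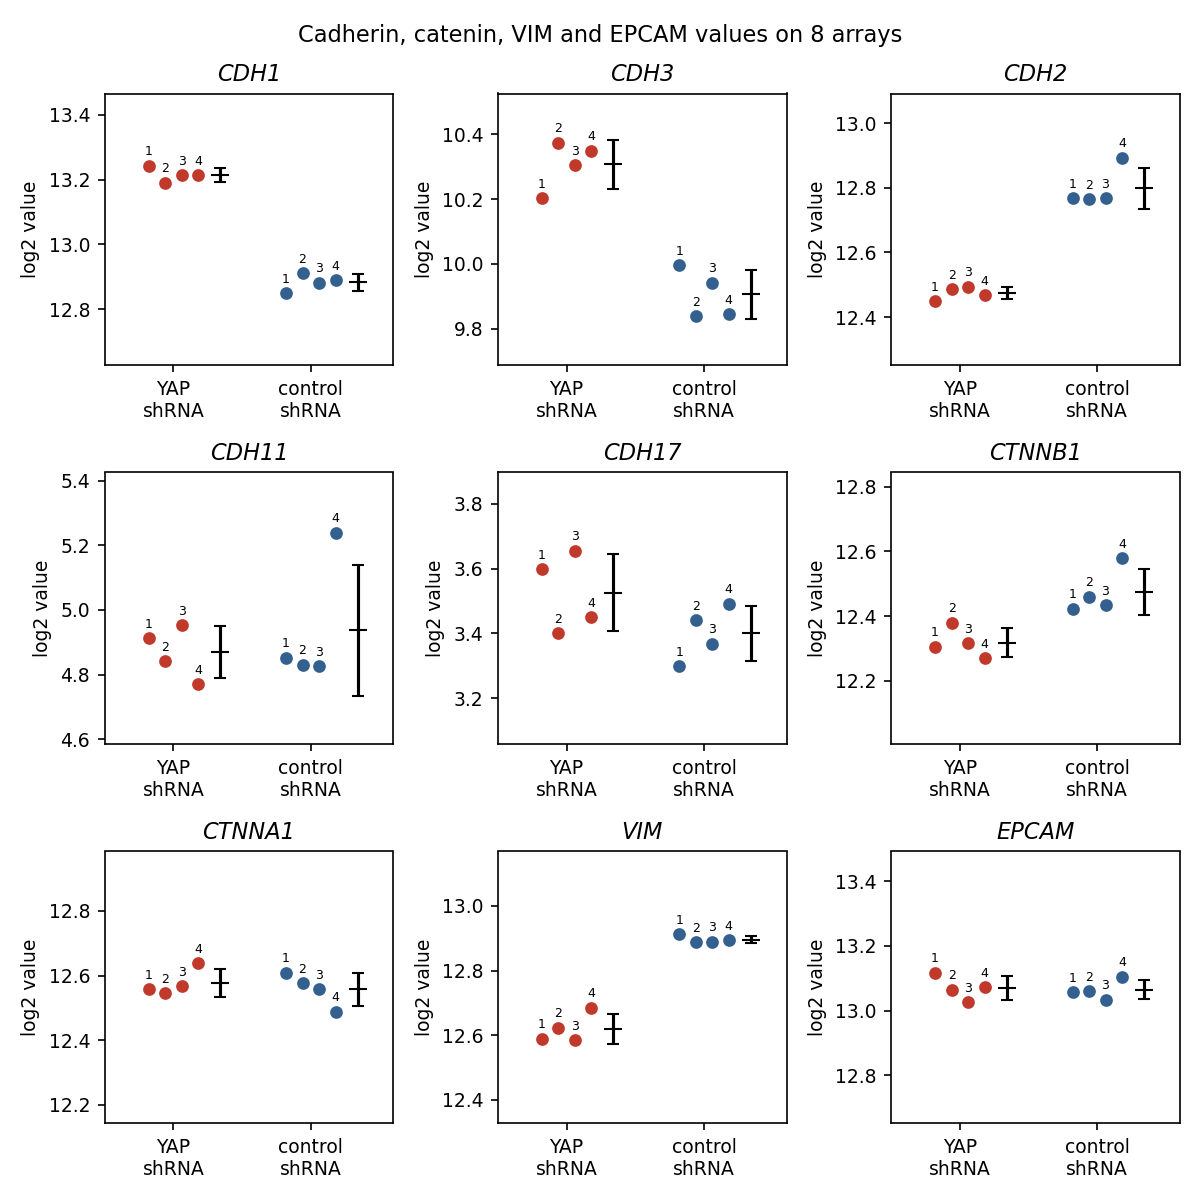
Log2 values (y axis, the same span of 0.84 log2 in each panel) of the 9 measured genes on the 8 arrays, YAP shRNA in red and control shRNA in blue, with the replicate number over each point and the mean ± SD (n = 4 per group) as a black bar. CDH1 and CDH3 sit higher with the YAP shRNA, CDH2, CTNNB1 and VIM lower, all without overlap, and control shRNA replicate 4 stands off in CDH2 and CDH11.

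CDH11 and CDH17 were dim, and neither passed the test. CDH11, the cadherin of osteoblasts and mesenchymal cells, read 4.91, 4.84, 4.95 and 4.77 on the YAP shRNA arrays, against 4.85, 4.83, 4.83 and 5.24 on the control shRNA arrays. The groups overlapped, and the sign of the log2 fold change of -0.07 (limma adjusted p = 0.715) turned to 0.03 without control shRNA replicate 4. Its other 3 probe sets were dimmer still, with log2 fold changes of -0.19 to 0.12, none called. CDH17, the liver-intestine cadherin, read 3.60, 3.40, 3.66 and 3.45 with the YAP shRNA, against 3.30, 3.44, 3.37 and 3.49 with the control shRNA. Its groups overlapped too (log2 fold change 0.13, 95% interval -0.03 to 0.28; limma adjusted p = 0.279). By mean level CDH11 and CDH17 lay at the 22.0 and 7.18 percentiles of genes. The values carry no detection call, so whether either transcript was present cannot be read from them.

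CTNNB1 encodes beta-catenin, which binds cadherin tails and also carries the canonical Wnt signal to the nucleus. It read 12.31, 12.38, 12.32 and 12.27 on the YAP shRNA arrays, against 12.42, 12.46, 12.43 and 12.58 on the control shRNA arrays. Every YAP shRNA array lay below every control shRNA array, yet the means of 12.32 ± 0.046 and 12.47 ± 0.071 (SD, n = 4 and 4) differed by a log2 fold change of -0.16 that did not pass the test (95% interval -0.26 to -0.05; limma adjusted p = 0.0588). Groups without overlap are common in these data, at 24.3% of all genes, and 5 of the 9 members had them. CTNNB1 was called lower with an intensity trend and robust prior in limma (adjusted p = 0.00638) and when dim genes were left out (adjusted p = 0.0176). Without control shRNA replicate 4 its log2 fold change was -0.12. Its 2 dimmer probe sets had log2 fold changes of -0.26 and -0.20, neither called.

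CTNNA1, the alpha-catenin gene, is the link from the cadherin complex to actin filaments. It read 12.56, 12.54, 12.57 and 12.64 on the YAP shRNA arrays, against 12.61, 12.58, 12.56 and 12.49 on the control shRNA arrays. The groups overlapped, with means of 12.58 ± 0.042 and 12.56 ± 0.051 (SD, n = 4 and 4). They differed by a log2 fold change of 0.02 (95% interval -0.08 to 0.12; limma adjusted p = 0.821), so a change beyond 0.12 lies outside the interval. The other 4 CTNNA1 probe sets ranged from -0.10 to 0.10, none called.

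VIM encodes vimentin, the intermediate filament protein of mesenchymal cells. It read 12.59, 12.62, 12.58 and 12.68 on the YAP shRNA arrays, against 12.91, 12.89, 12.89 and 12.89 on the control shRNA arrays. The control shRNA arrays agreed closely with each other, and all of them were higher. The means of 12.62 ± 0.046 and 12.90 ± 0.011 (SD, n = 4 and 4) gave a fall by 0.28 log2, or 1.21-fold (limma adjusted p = 0.00149). The second VIM probe set was dim, with 4.67, 4.68, 4.67 and 4.80 on the YAP shRNA arrays, against 5.49, 5.33, 5.56 and 4.79 on the control shRNA arrays. Control shRNA replicate 4 lay among the YAP shRNA values there. That probe set was called lower, with a log2 fold change of -0.59 (limma adjusted p = 0.0435 over all probe sets). Its log2 fold change without control shRNA replicate 4 is not given here.

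EPCAM encodes the epithelial cell adhesion molecule, a homophilic adhesion protein outside the cadherin family and a common carcinoma marker. It read 13.12, 13.06, 13.03 and 13.07 on the YAP shRNA arrays, against 13.06, 13.06, 13.03 and 13.11 on the control shRNA arrays. The 2 groups covered nearly the same range. The means were 13.07 ± 0.038 and 13.06 ± 0.030 (SD, n = 4 and 4), with a log2 fold change of 0.01 (95% interval -0.08 to 0.09; limma adjusted p = 0.942).

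For CDH1, CDH2 and VIM the dimmer probe set showed a wider difference than the main one, as the plot of all probe sets shows, with 95% intervals that overlapped within each gene. All single-symbol probe sets of CDH1, VIM and EPCAM are of the kinds that can match more than 1 transcript, so for these genes no more specific reading was at hand.

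**Figure D2:**
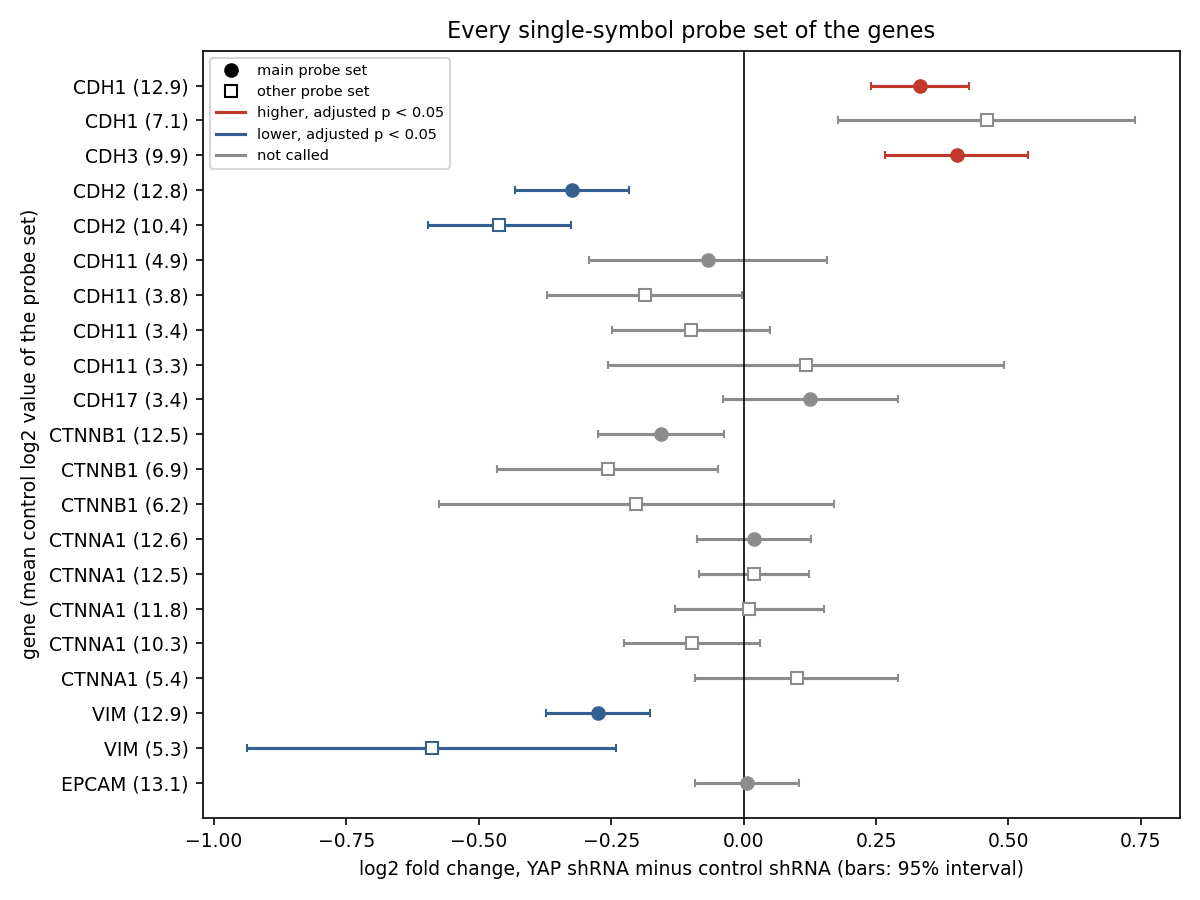
Log2 fold change, YAP shRNA minus control shRNA (x axis, bars are 95% intervals from limma, n = 4 arrays per group), of every single-symbol probe set of the 9 genes, with the mean control shRNA log2 value in parentheses; filled circles are the main probe sets and colour marks calls over all probe sets. Probe sets of CDH1 lie to the right of 0, those of CDH2, CTNNB1 and VIM to the left, and those of CTNNA1 on both sides.

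By profile over the 8 arrays, the genes nearest to CDH3, the called member with the widest rise, were GSAP, FBXL18 and SLC12A2. Their root mean square differences from CDH3, after centring each gene on its mean, were 0.0238, 0.0402 and 0.0405 log2. The genes nearest to CDH2, the called member with the widest fall, were JUN, RAB32 and SLC30A4, at 0.0221, 0.0226 and 0.0253 log2. JUN, which encodes an AP-1 subunit, had a log2 fold change of -0.31. Likeness here is a description over 8 arrays, and a similar difference between the groups is part of the measure.

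Among 16 other measured cadherin genes of 18 listed, 1 rose and 0 fell (2 up and 0 down at an unadjusted p under 0.05; median log2 fold change 0.10). The one that rose was CDH6, a cadherin named for its expression in kidney. It ranged from 10.85 to 11.00 on the YAP shRNA arrays, against 9.79 to 9.91 on the control shRNA arrays. The log2 fold change was 1.07 (limma adjusted p = 1.15e-05), wider than that of any of the 9 members. The other 15 were not called, and all of them lay below the median gene level, from percentile 2.87 (CDH9) to 49.3 (CDH24). CDH6 lay at percentile 74.3. Over all genes 9.49% rose and 7.17% fell. The counts of this list thus describe mostly dim genes, for which the values carry no detection call.

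The partners of the cadherins at the junction plaque moved in both directions. Of 21 measured catenin relatives and plaque genes, 4 rose and 4 fell, with a median of 0.05. Over all genes 16.7% were called, and among genes above the median level 26.6%. NECTIN4 rose by 1.04, ranging from 7.26 to 7.50 with the YAP shRNA, against 6.02 to 6.77 with the control shRNA. JUP, the plakoglobin gene, whose product can take the place of beta-catenin on cadherin tails, rose by 0.78 (11.63 to 11.71 on YAP shRNA arrays, 10.83 to 10.99 on control shRNA arrays). PLEKHA7, which binds delta-catenin, rose by 0.61. Nectins are immunoglobulin-like adhesion proteins that help start adherens junctions. NECTIN3 went the other way and fell by 0.69, with 9.07 to 9.41 on the YAP shRNA arrays, against 9.86 to 10.08 on the control shRNA arrays. SSX2IP, a junction and centrosome protein, fell by 0.27, and ACTN1, an actin crosslinker, by 0.22. NECTIN2, which rose by 0.46, and CTNNAL1, an alpha-catenin relative that fell by 0.14, are the remaining called genes and were picked out after their values were seen. The vinculin gene VCL and the afadin gene AFDN, also picked out in that way, stood at 0.02 and 0.14 log2 and were not called.

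Regulators of cadherin turnover and of beta-catenin stability were called no more often than the 16.7% of all genes. Of 14 measured genes of cadherin cleavage, trafficking and phosphorylation, FER, a kinase that binds delta-catenin, fell by 0.19 and 0 rose (3 up and 3 down at an unadjusted p under 0.05; median -0.05). Without control shRNA replicate 4, 1 rose and 2 fell. Of 13 genes of the beta-catenin destruction complex and its kin, 2 rose and 0 fell (median 0.01). They were CTNNBIP1, an inhibitor of beta-catenin binding to TCF factors, by 0.55, and AMER1, a scaffold of the destruction complex, by 0.35. Without control shRNA replicate 4, 2 rose and 1 fell. In that fit 2249 of all 19775 genes rose and 1632 fell, so the counts without that array are not to be set against the 16.7%. Of 11 measured transcription targets of beta-catenin, limma called 0, and 0 had an unadjusted p under 0.05 (median -0.06). LGR5, RNF43, SP5, ASCL2, NOTUM, AXIN2, LEF1 and NKD1 among them lay below the median gene level, at percentiles 14.1 to 43.3. The absence of calls thus comes mostly from dim genes. The brighter CCND1, DKK1 and ZNRF3 had log2 fold changes of 0.04, -0.09 and 0.02.

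EPCAM itself was not called. Of 10 measured relatives, partners and proteases, 4 were called, 3 higher and 1 lower (median 0.05). Over all genes 16.7% were called, and among genes above the median level 26.6%. CLDN7, a claudin that binds EPCAM, rose by 0.49, with 12.04 to 12.12 on the YAP shRNA arrays, against 11.53 to 11.71 on the control shRNA arrays. The membrane protease gene ST14, whose product (matriptase) cleaves EPCAM, and SPINT1, an inhibitor of that protease, rose by 0.40 and 0.39. FHL2, a LIM protein that binds the EPCAM intracellular domain, fell by 0.61 (limma adjusted p = 9.70e-05).

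Of 13 measured intermediate filament relatives and partners of VIM, 3 rose and 0 fell (3 up and 3 down at an unadjusted p under 0.05; median -0.05). PLEC, which encodes the linker protein plectin and lies on chromosome 8, rose by 0.33, the nuclear lamin gene LMNA by 0.21 and the ductal keratin gene KRT19 by 0.15. Over all genes 9.49% rose and 7.17% fell, and 0 falls in a list of this size is close to that. Chromosome 8 had 21.0% of its genes called higher.

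Among regulators that act on these genes, 2 of 12 EMT repressors fell and 0 rose (2 down and 0 up at an unadjusted p under 0.05; median 0.00), a called share close to the 16.7% of all genes. They were ZEB1 and SNAI2, which bind E-boxes and repress CDH1. ZEB1 ranged from 8.71 to 8.94 with the YAP shRNA, against 9.85 to 9.99 with the control shRNA, a log2 fold change of -1.09. SNAI2, a chromosome 8 gene, ranged from 10.27 to 10.43 on the YAP shRNA arrays, against 10.94 to 11.09 on the control shRNA arrays, a log2 fold change of -0.65. The repressor genes SNAI1, ZEB2, PRRX1, FOXC2, GSC, TWIST2, TWIST1, TCF4 and KLF8 lay below the median gene level, at percentiles 18.3 to 42.2. The median and the called share of this list therefore rest mostly on dim genes. Besides ZEB1 and SNAI2, only TCF3 lay above the median level, and it was not called. Of 12 measured epithelial and intestinal regulators of 16 listed, 7 rose and 0 fell (7 up and 0 down at an unadjusted p under 0.05; median 0.22). Over all genes 9.49% rose and 7.17% fell, and among genes above the median level 15.2% and 11.4%. GRHL3, a grainyhead factor of surface epithelia, rose by 1.31, the epithelial ETS factor gene ELF3 by 0.98 and OVOL1, a zinc finger repressor of EMT genes, by 0.60. GRHL3 was dim, at percentile 33.9, with means of 6.48 with the YAP shRNA and 5.16 with the control shRNA. ESRP1 and GRHL2, also among the risen regulators, lie on chromosome 8, where 21.0% of genes were called higher. The part of the chromosome in their rise was not tested. Of 12 mesenchymal effectors, the collagen gene COL1A1 and the calcium-binding protein gene S100A4 rose by 0.52 and 0.50, while POSTN, the periostin gene, fell by 1.02 with overlapping groups (median 0.11). Without control shRNA replicate 4, 4 of these effectors rose and 1 fell, where 2249 of all 19775 genes rose and 1632 fell. These lists were chosen with earlier results of the same arrays known, so their counts are no independent evidence of a direction.

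**Figure D3:**
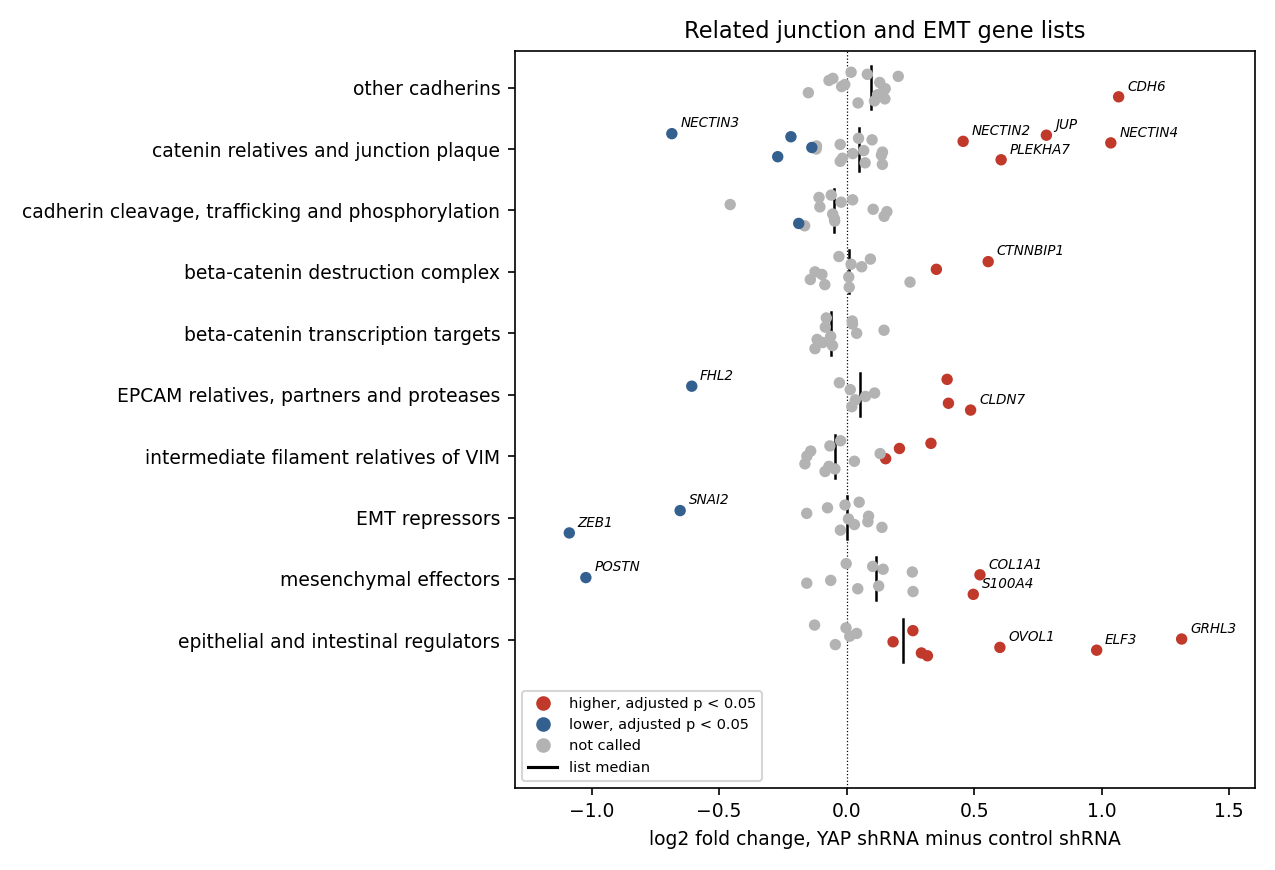
Log2 fold change, YAP shRNA minus control shRNA (x axis), of each measured gene in 10 related lists (rows), red where called higher, blue where called lower and grey where not called by limma, with a black line at each list's median. Epithelial regulators hold 7 red points and no blue one, and the junction plaque row holds 4 of each.

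Markers of other cell types were mostly dim. Of 7 leukocyte and 7 endothelial markers, 0 lay above the median gene level, and of 9 fibroblast, 8 hepatocyte and 6 neural markers 1 each did. The mean log2 level of the leukocyte list was 4.77 to 4.86 on the YAP shRNA arrays, against 4.53 to 4.71 on the control shRNA arrays, without overlap. LYZ and CD14 rose by 0.86 and 0.46 there, while PTPRC, which defines leukocytes, stood at means of 3.74 with the YAP shRNA and 3.96 with the control shRNA and fell by 0.22, a call lost without control shRNA replicate 4. The neural list had 6.79 to 6.84 with the YAP shRNA, against 6.57 to 6.69 with the control shRNA, and its single called gene was NEFL, up by 0.84 on chromosome 8. The biliary list had 11.19 to 11.21 with the YAP shRNA, against 11.03 to 11.18 with the control shRNA, again without overlap. Its called genes were CFTR, up by 1.07, and KRT19, up by 0.15. Its other measured markers, KRT7, KRT8, KRT18, SOX9 and SPP1, had log2 fold changes of -0.30 to -0.05, none called. The list median was -0.07, so the higher mean does not describe most of its genes. The fibroblast, endothelial and hepatocyte lists overlapped between the groups (5.53 to 5.64, 5.30 to 5.38 and 6.24 to 6.47 with the YAP shRNA, against 5.36 to 5.67, 5.14 to 5.45 and 6.20 to 6.34 with the control shRNA). Limma called 1 fibroblast marker (COL1A1), 1 hepatocyte marker and 0 endothelial markers, with 1 at an unadjusted p under 0.05. In bulk samples a different share of cells and a different RNA level per cell cannot be told apart, and the part of other cells in the results above was not tested.

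**Figure D4:**
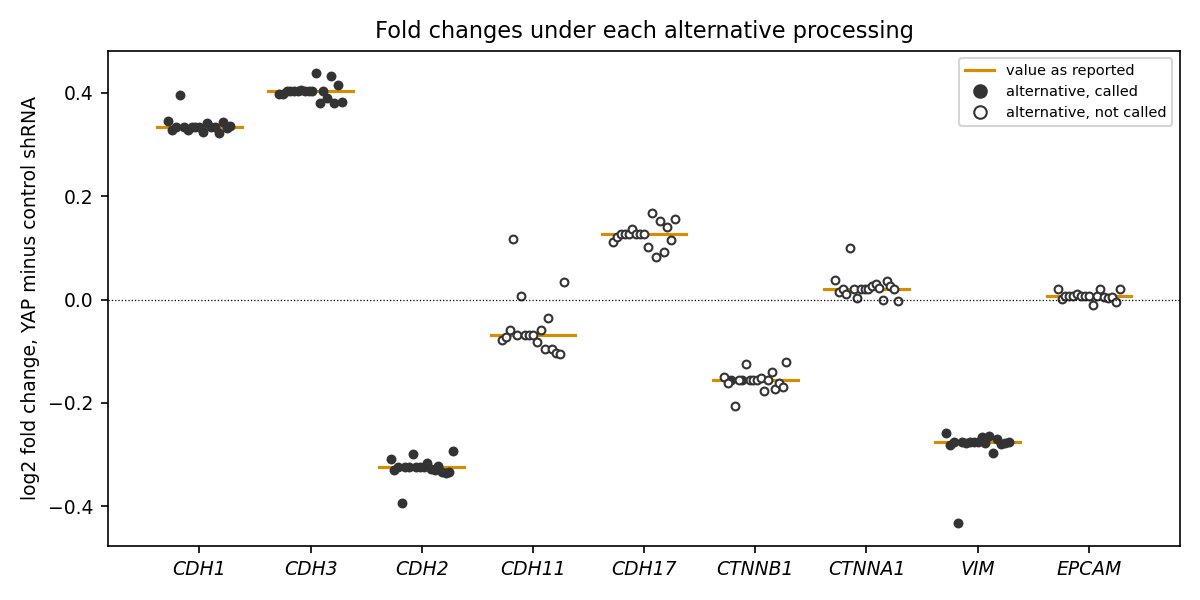
Log2 fold change, YAP shRNA minus control shRNA (y axis), of the 9 genes (x axis) as reported (orange line) and under up to 18 alternative processings (points, filled where called and open where not). CDH1, CDH3, CDH2 and VIM stayed called under every alternative that could measure them, CTNNB1 was called under 2, and CDH11, CTNNA1 and EPCAM had values on both sides of 0.

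The 4 called members kept their direction and their call under each alternative that had a value for them, 18 for CDH2 and CDH3 and 17 for CDH1 and VIM. The 0.01 threshold, the filter on dim genes, the intensity trend with robust prior and the replicate block left the fold changes as they were. Under those alternatives only the call could change. The log2 fold change ranged from 0.32 to 0.40 for CDH1, from 0.38 to 0.44 for CDH3, from -0.39 to -0.29 for CDH2 and from -0.43 to -0.26 for VIM, as drawn in the plot of alternatives. The highest adjusted p from limma among these was 0.0256, for CDH3. As single values, CDH1, CDH2, CDH3, VIM and CTNNB1 each had a two-sided exact permutation p of 0.0286, the smallest that 4 arrays against 4 allow. Groups without overlap always give this value, and 24.3% of all genes had such groups, so it adds nothing to the lack of overlap.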

How the data were processed

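RNA from 8 HuCCT1 samples (4 YAP shRNA, 4 control shRNA) was amplified (NuGEN) and biotin-labelled for Affymetrix arrays, per the labels' protocols. The authors deposited a log2 value for each probe set on each array, the log base being inferred from the range of 1.72 to 14.89. How they corrected background, summarised probes and normalized is not given in the sources used here. Array medians lay between 6.22 and 6.25, within the limit of 0.5 log2, so nothing further was normalized. GEO's platform annotation gave 41097 of 54675 probe sets a single symbol, 1801 several and 11777 none. By Entrez ID, 0 symbols changed against RefSeq. Each of 19775 genes took its brightest single-symbol probe set.

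The fit was limma 3.58.1 in R 4.3.3, YAP shRNA minus control shRNA, without a block, with Benjamini-Hochberg adjustment over all genes and calls below 0.05. It was tested on simulated data. A fit over all probe sets gave the other probe sets' values. Alternatives were quantile normalization, median centring, a filter on dim genes, other choices of probe set, other spread models, array weights, a threshold of 0.01, blocking on the replicate number and leaving out single arrays. Arrays give no read depth, and their number limits the precision.

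The members, the lists and the rule for named genes were chosen with earlier results of these data known. The rule names all members, YAP1, up to 3 risen and 3 fallen called genes per list and the 3 genes nearest in profile to the called members with the widest rise and fall. Neighbouring genes and the counts without control shRNA replicate 4 were added later. Same-numbered arrays of the groups correlated at -0.21 to 0.00 in their deviations from the group means, which gave no sign of pairing by number. With so few arrays, these values cannot show that the arrays were not handled in matched sets. Figures used matplotlib 3.10.9.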

Additional observations from a re-analysis of the deposited data

Results flagged for a closer look

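In groups of 4 arrays, a value counts as far from the others where its gap to the nearest one takes up most of the group's range (Dixon's test at the 95% level). Of 20 groups of values, from 9 members and YAP1 in both conditions, 3 held such an array, where chance gives about 1. CDH2 stood at 12.89 in control shRNA replicate 4, with 12.77 on each of the other 3 control shRNA arrays. CDH11 stood at 5.24 in the same array, with 4.83 to 4.85 on the others. YAP1 stood at 12.77 in control shRNA replicate 3, with 12.59 to 12.61 on the others.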

How the results depend on the processing

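Without probe sets that can match several transcripts, 6 members could be measured, and 1 rose and 1 fell. CDH1, VIM and EPCAM have no other probe set and dropped out. At a threshold of 0.01, 1022 genes rose and 763 fell. With the replicate block, 1222 rose and 884 fell, with 2 members higher and 2 lower. The values gave no sign that the numbers pair the arrays, and the block changed no member's call. Leaving out 1 array at a time gave 1362 to 2249 rises and 1019 to 1632 falls, always with 2 members higher and 2 lower. The sign of CDH11 turned to 0.117 without probe sets matching several transcripts, to 0.0079 with array weights and to 0.033 without control shRNA replicate 4, in a range of -0.105 to 0.033 over arrays left out. That of EPCAM turned to -0.0098 without YAP shRNA replicate 1 and to -0.0043 without control shRNA replicate 3 (-0.0098 to 0.021 over arrays left out). That of CTNNA1 turned to -0.00094 without YAP shRNA replicate 4 and to -0.0034 without control shRNA replicate 4 (-0.0034 to 0.037). CTNNB1 was called in 2 alternatives. Dropping dim genes or adding an intensity trend with a robust prior also gave 2 members higher and 3 lower. Dim genes such as CDH11 and CDH17 have no detection call, which limits what their values show.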
